A study of Mus musculus with 9 samples.

Results

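Ribosome biogenesis was followed through 35 genes that act in the nucleolus, from RNA polymerase I (Pol I) and its factors to the proteins that modify, cut and assemble ribosomal RNA. The members are a fixed list of gene symbols, and all 35 were found among the 35006 gene symbols of the count files. Their RNA was compared in stem cells of the hair follicle bulge, from C57BL/6J mice, which a cell sorter had picked as positive for CD34 and for integrin alpha6. The 4 libraries of dietary restriction (DR) came from mice given each day 70% of the food that matched controls ate. The 5 control libraries came from mice fed ad libitum (AL), and all mice lived singly. Each sort pooled 3 mice, and the labels do not say whether each library had its own pool, so a p-value here measures spread among these libraries, some of it perhaps technical. The series title speaks of irradiation and hair graying, but the labels give neither an irradiation state nor an age, sex, hair cycle stage or batch.

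Ribosome production starts when Pol I copies the ribosomal RNA genes into 1 long precursor. Small nucleolar ribonucleoproteins (snoRNPs), RNA-guided enzymes, then modify that precursor: the box C/D class adds methyl groups and the box H/ACA class turns uridine into pseudouridine. Assembly factors and helicases fold and cut it into the small and the large ribosomal subunit. The process takes much of a growing cell's resources, is promoted by Myc and mTORC1 signalling, and usually runs lower in resting than in dividing cells.

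Libraries held 26119459 to 33559312 counts on genes. Two-sided exact permutation tests found no difference between the diets past the threshold in the gene total (exact p = 0.548), the number of genes detected (exact p = 0.913) or the share of reads outside genes (exact p = 0.421; 3 measures, adjusted p of at least 0.821). Keratin 15 (Krt15), a bulge marker, stood at 8498 ± 555 CPM in DR and 12365 ± 1812 CPM in AL (SD, n = 4 and 5), where CPM is the count scaled to a common library size (TMM scaling). All 10 bulge markers looked for were measured, and their summed level was 20855 to 22267 CPM in DR and 27503 to 38438 CPM in AL, with 5 of the 10 lower in DR by edgeR's test (Cd34, Krt5, Krt14, Krt15 and Sox9) and none higher. The sorting antigens were present: Cd34 at 479 ± 102 CPM in DR and 1083 ± 579 CPM in AL, and integrin alpha6 (Itga6) at 412 ± 11.8 CPM in DR and 449 ± 44.9 CPM in AL. The 6 markers of suprabasal epidermis summed to 2230 to 5540 CPM in DR and 2000 to 4730 CPM in AL, with none at 0. The summed CPM of 7 fibroblast markers was 19.8 to 40.5 in DR and 74.0 to 123 in AL, with none of the 7 at 0, and 7 melanocyte markers summed to 120 to 172 in DR and 109 to 227 in AL, again with none at 0. By edgeR's test 2 of the 4 fibroblast markers tested were lower in DR and 1 was higher. Of the 5 melanocyte markers tested 3 were lower and 0 higher, with a median log2 fold change of -1.44. Of the 6 suprabasal markers 1 was higher and 0 lower. The part of these marker differences in the results below was not tested, and in bulk RNA a change in the number of cells of a type and a change in RNA per cell cannot be told apart.

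Most of the ribosome production genes differed little between the diets, and those that passed the test were lower in DR. By edgeR's quasi-likelihood test with adjustment over all genes, 8 of 35 members passed, all lower in DR: Bysl, Dkc1, Fbl, Bop1, Nop16, Nhp2, Wdr12 and Polr1a. No member passed as higher; at an unadjusted p under 0.05 there were 9 lower and 2 higher, and the DESeq2 Wald test called 9 lower and 1 higher (22.1% and 21.2% of all genes). Over all 15447 genes tested, 40.7% passed, 21.7% as lower and 19.0% as higher. The 8 members make 22.9% of the list, close to the 21.7% of all genes, so the share of lower calls does not set the list apart. At an adjusted p under 0.01, 5 members were lower, against 13.4% of all genes, and 5 were lower by at least 1.5-fold, against 14.3%. The median log2 fold change of the 35 members was -0.14, and that of all tested genes -0.02. The median was -0.05 without AL replicate 4 and -0.08 without DR replicate 2. The members' summed level was 2565, 2029, 2308 and 2331 CPM in DR and 2263, 2512, 2442, 2882 and 2272 CPM in AL, with the groups overlapping. A log2 fold change within 0.25 of 0 was found for 24 of the 35 members (68.6%) and for 38.0% of all tested genes. The latter share includes genes of low count, whose fold changes vary more, and no share matched for level is given. Each member had at least 170 reads in every library, so all 35 passed the filter on low counts.

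**Figure D1:**
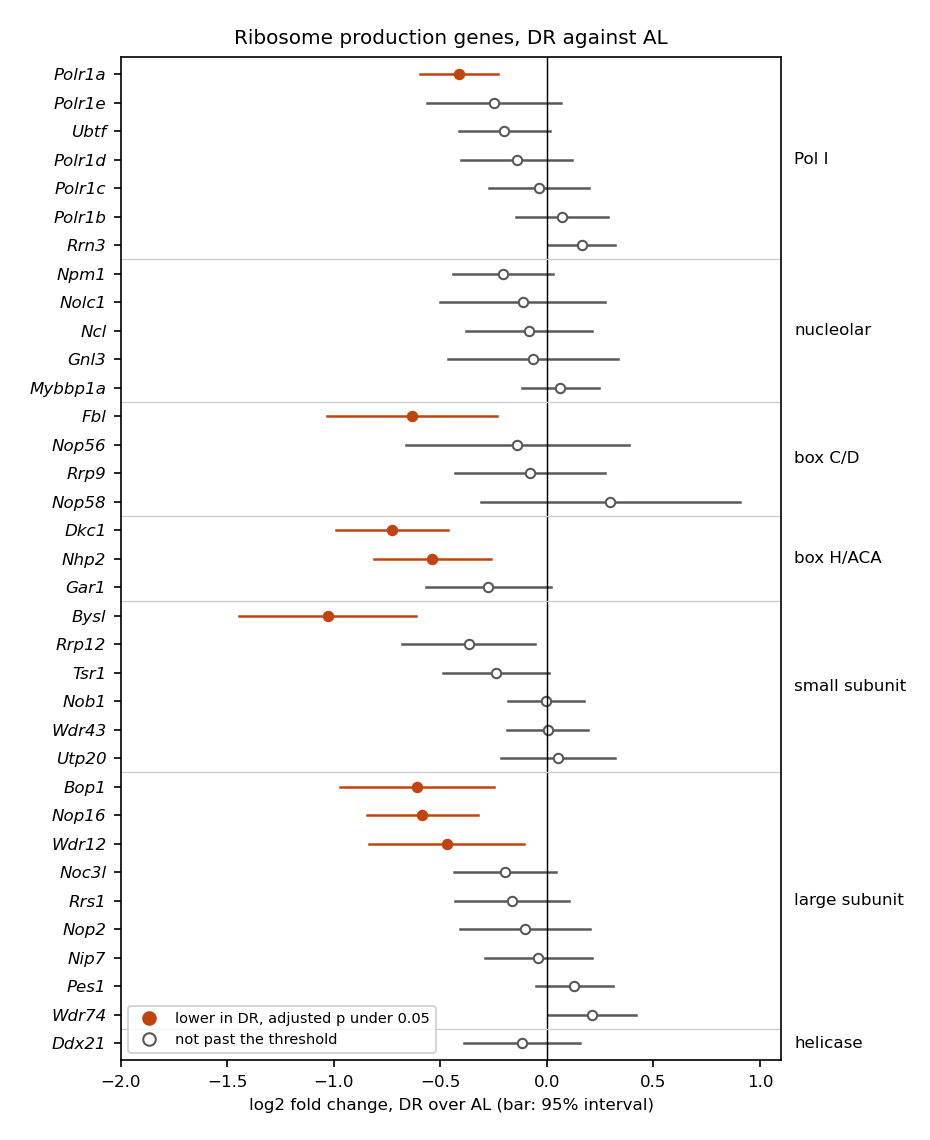
Log2 fold change of each of the 35 members, DR over AL, on the horizontal axis, with members grouped down the page by their role. Points are edgeR estimates from 4 DR and 5 AL libraries and bars are 95% intervals; filled points are the 8 members past the threshold, of which Bysl lies farthest from 0 at -1.03.

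Of the 7 Pol I members, 1 passed, the gene of the largest subunit. Polr1a, which forms the catalytic centre together with Polr1b, was at 34.7, 31.7, 32.2 and 28.1 CPM in DR replicates 1 to 4, against 43.4, 43.3, 41.8, 43.8 and 38.4 CPM in AL replicates 1 to 5. Every DR library lay below every AL library. The log2 fold change was -0.41 (SE 0.08, edgeR adjusted p = 0.0027). Polr1b, the second largest subunit, was at 36.9, 38.0, 36.6 and 31.7 CPM in DR and at 39.4, 36.0, 32.7, 32.8 and 29.6 CPM in AL. These groups overlapped throughout, and the log2 fold change was 0.07, with a 95% interval of -0.15 to 0.29 (edgeR adjusted p = 0.60). The difference between the responses of the 2 subunits was not itself tested. Polr1c and Polr1d, which Pol I shares with Pol III, and Polr1e, a subunit of the initiating enzyme, had log2 fold changes of -0.04, -0.14 and -0.25 and did not pass.

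Among the members, the factors that bring Pol I to its promoter did not pass either. Rrn3, known in mammals as TIF-IA, binds Pol I and makes it ready to initiate, and is a known point of control by growth signals. It was at 44.2, 46.1, 51.4 and 45.7 CPM in DR, against 41.3, 41.9, 43.8, 40.7 and 41.4 CPM in AL. All DR libraries were above all AL libraries, as for 15.9% of all tested genes, by a log2 fold change of 0.16 (95% interval 0.01 to 0.32, edgeR adjusted p = 0.091; 0.046 by the DESeq2 Wald test). Ubtf, whose protein UBF coats active ribosomal RNA genes, was at 153, 161, 195 and 185 CPM in DR and at 188, 209, 194, 217 and 188 CPM in AL. DR replicates 1, 2 and 4 lay below all AL libraries, replicate 4 only slightly, while DR replicate 3 overlapped AL. Its log2 fold change was -0.20 (95% interval -0.41 to 0.01, edgeR adjusted p = 0.12; 0.043 with upper-quartile scaling).

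The genes of the abundant nucleolar proteins showed no change past the threshold. Nucleolin (Ncl), which binds nascent ribosomal RNA, had the highest level of all members: 669, 515, 547 and 634 CPM in DR and 537, 599.7, 598, 793 and 606 CPM in AL. The groups overlapped, AL replicate 4 being highest, and the log2 fold change was -0.08 (95% interval -0.38 to 0.21). Nucleophosmin (Npm1), a histone and ribosome chaperone that gives the nucleolus its outer layer, was at 111, 112, 118 and 148 CPM in DR and at 122, 150.1, 136, 148 and 149 CPM in AL. DR replicate 4 lay within the AL range and the other DR libraries were lower than all of AL. The log2 fold change was -0.21 (edgeR adjusted p = 0.15; 0.032 without DR replicate 4, where it was -0.31). Processed copies of Npm1 in the genome can take or void its reads. Nolc1, a chaperone of snoRNPs, Gnl3, the nucleolar GTPase nucleostemin of stem and cancer cells, and Mybbp1a, a binding partner of Myb in the nucleolus, had log2 fold changes of -0.11, -0.06 and 0.06.

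In the box C/D snoRNP the methyltransferase gene fell while the scaffold protein genes did not pass. Whether these responses differ was not tested. Fibrillarin (Fbl), the enzyme of this particle, was at 9.93, 5.33, 6.99 and 6.96 CPM in DR, against 11.3, 11.6, 11.3, 13.2 and 9.15 CPM in AL. DR replicate 1 was above AL replicate 5, and otherwise the groups were apart. The log2 fold change was -0.63 (SE 0.18, edgeR adjusted p = 0.017). Nop56 and Nop58 hold the particle together and varied widely within each diet. Nop58 was at 210.0, 74.2, 97.0 and 127 CPM in DR and at 86.4, 109, 98.2, 145 and 77.0 CPM in AL. DR replicate 1 was the highest of all libraries and DR replicate 2 the lowest, and the 95% interval of its log2 fold change (0.30) ran from -0.31 to 0.91. Nop56 had 125.9, 55.8, 68.2 and 88.5 CPM in DR and 74.8, 107, 81.1, 128 and 74.4 CPM in AL, a log2 fold change of -0.14 (95% interval -0.66 to 0.38). Rrp9, which binds the U3 RNA that guides early cleavage, had a log2 fold change of -0.08 and did not pass.

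The box H/ACA snoRNP was lower in DR in 2 of its 3 members. Dyskerin (Dkc1), the pseudouridine synthase of the particle and also part of telomerase, was at 24.6, 29.3, 30.4 and 23.2 CPM in DR, against 41.5, 52.1, 47.1, 44.6 and 37.0 CPM in AL. The groups did not overlap, and the log2 fold change of -0.73 (SE 0.12, edgeR adjusted p = 0.00086) had the smallest p of all members. Nhp2, a core protein that binds the guide RNA, was at 17.4, 15.6, 23.3 and 19.5 CPM in DR and at 24.8, 30.4, 29.7, 27.1 and 25.4 CPM in AL. Its groups did not overlap either, with a log2 fold change of -0.54 (SE 0.12, edgeR adjusted p = 0.0058). Gar1, the third member, averaged 15.95 ± 1.85 CPM in DR and 19.3 ± 2.79 CPM in AL (SD, n = 4 and 5) and did not pass (log2 fold change -0.27, edgeR adjusted p = 0.12). It passed without AL replicate 5, its lowest AL library (adjusted p = 0.030). Nop10, the remaining core protein and not a member, fell by 0.41 on the log2 scale (SE 0.11, edgeR adjusted p = 0.011).

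Of the small subunit factors, Bysl changed most of all 35 members. Bystin (Bysl) is needed to mature the small subunit precursor. Its level was 7.59, 8.23, 9.70 and 6.35 CPM in DR, against 14.6, 17.0, 20.5, 18.1 and 11.03 CPM in AL. The groups did not overlap, and AL replicate 5 was the AL library nearest to DR. The level in DR was 0.490 times that in AL (log2 fold change -1.03, SE 0.19, edgeR adjusted p = 0.0016). Rrp12, an export factor, averaged 15.9 ± 2.40 CPM in DR and 20.5 ± 2.92 CPM in AL (SD, n = 4 and 5) and missed the threshold (log2 fold change -0.37, edgeR adjusted p = 0.057). It passed in 5 of 19 other fits, among them upper-quartile scaling (adjusted p = 0.035), the DESeq2 Wald test (0.048), limma with quality weights (0.020) and the fit without AL replicate 5 (0.011). Tsr1, a late assembly factor, had a log2 fold change of -0.24 (edgeR adjusted p = 0.11) and passed in 2 of 19 other fits, one of them without AL replicate 5 (0.030). The endonuclease Nob1, which makes the last cut in the small subunit RNA, and the early factors Wdr43 and Utp20 had log2 fold changes of -0.00, 0.00 and 0.05. For Nob1 the 95% interval ran from -0.18 to 0.18.

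Of the 9 large subunit members 3 fell, among them 2 of the 3 that form 1 complex. Pes1, Bop1 and Wdr12 form the PeBoW complex, which is needed to process the large subunit RNA. Bop1 was at 47.8, 34.5, 36.7 and 24.6 CPM in DR, against 51.8, 55.7, 59.0, 61.4 and 46.1 CPM in AL. DR replicate 1 was above AL replicate 5, while the other DR libraries lay below all of AL. Its log2 fold change was -0.61 (SE 0.16, edgeR adjusted p = 0.012). Wdr12 was at 6.62, 8.47, 7.40 and 5.48 CPM in DR and at 9.79, 11.3, 9.96, 9.95 and 7.41 CPM in AL. Only AL replicate 5 fell into the DR range. The log2 fold change of -0.47 (SE 0.17, edgeR adjusted p = 0.042) lay near the threshold, and 10 of 19 other fits did not pass it (adjusted p up to 0.12). Pes1 averaged 40.0 ± 3.35 CPM in DR and 36.6 ± 2.08 CPM in AL (SD, n = 4 and 5), a log2 fold change of 0.13 (95% interval -0.05 to 0.31, edgeR adjusted p = 0.24). Whether the 3 responses differ was not tested.

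The third large subunit member that fell was Nop16, a nucleolar factor of early large subunit particles. It was at 16.9, 14.8, 16.6 and 13.7 CPM in DR, against 19.8, 25.6, 25.9, 24.6 and 20.3 CPM in AL, with no overlap (log2 fold change -0.59, SE 0.12, edgeR adjusted p = 0.0027). The methyltransferase Nop2, the assembly factor Rrs1, and Nip7 and Noc3l did not pass (log2 fold changes -0.10, -0.16, -0.04 and -0.20). In Noc3l the groups did not overlap all the same, since its AL libraries spanned 22.7 to 24.5 CPM, above the 16.1 to 22.7 CPM of DR. Wdr74 had the opposite sign, at 33.2 ± 3.60 CPM in DR and 28.6 ± 1.90 CPM in AL (SD, n = 4 and 5; log2 fold change 0.21, edgeR adjusted p = 0.092; 0.037 without DR replicate 2). Ddx21, a helicase active in Pol I transcription and in freeing snoRNAs, had a log2 fold change of -0.12. In all, DR lay wholly below AL for 6 members (17.1%), against 17.0% of all tested genes, and wholly above it for Rrn3.

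**Figure D2:**
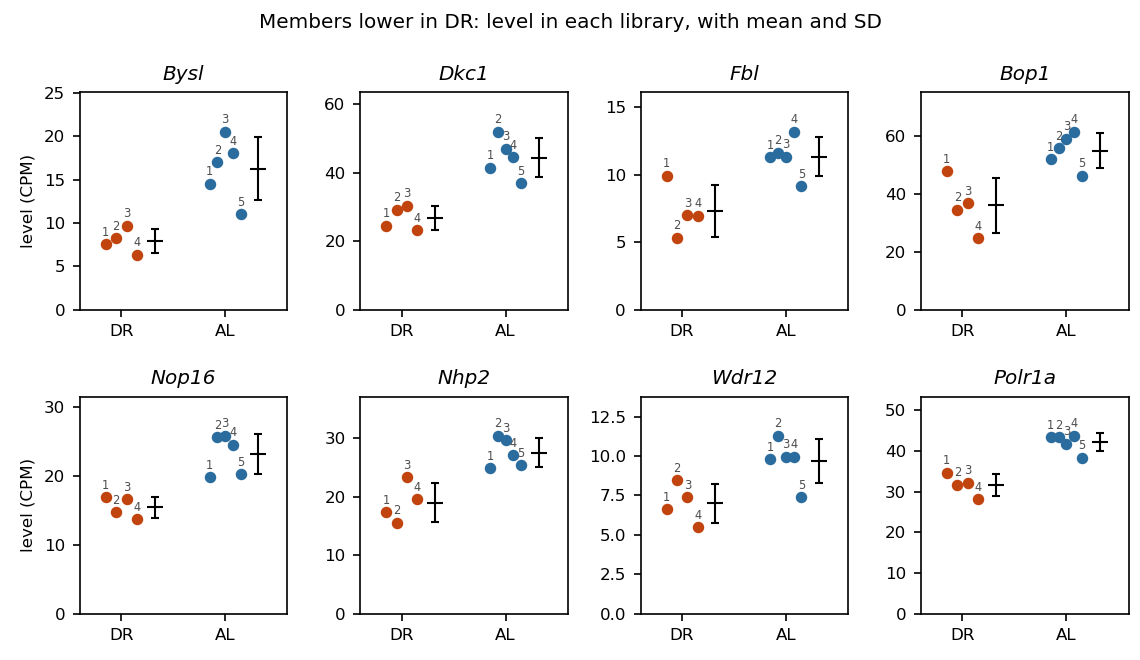
Level (CPM, vertical axes starting at 0) of the 8 members that were lower in DR, for each of 4 DR and 5 AL libraries, numbered by replicate, with mean and SD in black. AL replicate 5 is the lowest AL library in 6 of the 8 panels, and the groups do not overlap for Bysl, Dkc1, Nop16, Nhp2 and Polr1a.

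The library kit does not mark strand, so a read on bases shared by the exons of a gene and a partner on the other strand cannot be traced to either. HTSeq set apart reads that it found ambiguous between genes, 1.19% to 1.29% of reads per library, and these count for no gene here. The strand setting is not given. Reads on shared bases may therefore be missing from both genes or be counted for 1 of them. In the GENCODE annotation 13 members share exon bases with another gene, among them 6 of the 8 that fell. The partner of Bysl, the cyclin gene Ccnd3, averaged 60.3 ± 8.69 CPM in DR and 72.7 ± 15.6 CPM in AL (SD, n = 4 and 5), a log2 fold change of -0.27 (edgeR adjusted p = 0.187). That of Dkc1, the membrane scaffold gene Mpp1, averaged 38.4 ± 4.99 CPM in DR and 47.0 ± 0.962 CPM in AL (SD, n = 4 and 5) and fell by 0.29 on the log2 scale (edgeR adjusted p = 0.0261). Rmnd5b, the partner of Nhp2, fell by 0.30 (edgeR adjusted p = 0.0415); both of these calls were lost in several fits with a library left out (adjusted p up to 0.061 for Mpp1 and 0.11 for Rmnd5b). On the log2 scale each of the 3 differences was smaller in size than that of the member. In CPM this held only for Mpp1 against Dkc1. Ccnd3 differed by more CPM than Bysl (mean 7.97 in DR and 16.2 in AL). Rmnd5b (38.5 in DR and 47.3 in AL) differed by about as many CPM as Nhp2 (18.9 in DR and 27.5 in AL). Carf, the partner of Wdr12, had a log2 fold change of -0.33 (edgeR adjusted p = 0.143), and no partner of Bop1 or Polr1a was tested. Srr, the partner of Tsr1, fell by 0.65 (edgeR adjusted p = 0.00547), a larger difference in size than the -0.24 of Tsr1, and the part of shared reads in the members' values was not tested. Fbl and Nop16 share no exon bases with another annotated gene.

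Among the AL libraries, replicate 5 stood lowest both for most of the members that fell and for genes of cell division. AL replicate 5 was the lowest AL library for 6 of the 8, namely Fbl, Dkc1, Bop1, Wdr12, Polr1a and Bysl, and for 20 of all 35 members (57.1%, against 25.3% of all tested genes). The summed level of 26 genes of G2 and M phase was 39.6, 92.1, 54.6 and 71.9 CPM in DR and 730, 1270, 706, 1339 and 202 CPM in AL replicates 1 to 5. AL replicate 5 was thus the lowest of AL there too, yet above each DR library. That of 26 S phase genes was 518 to 600.2 CPM in DR and 579 to 1361 CPM in AL, with AL replicate 5 at 579. Of those lists, 26 of 26 and 15 of 26 genes fell by edgeR's test, with median log2 fold changes of -3.97 and -0.80. Without AL replicate 5 there were 11 members lower in DR (21.8% of all genes were), with Gar1, Rrp12 and Tsr1 added to the 8. The part of cell division in the fall of the members was not tested.

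A second pattern crossed the diets. DR replicate 1 was the highest DR library and AL replicate 4 the highest AL library for 11 of 35 members (31.4%), while 9.45% of all tested genes had both. These were Fbl, Ncl, Nop56, Nop58, Nop2, Bop1, Nolc1, Polr1a, Polr1c, Gnl3 and Rrp9, a pattern noticed in the data. Gnl3 was at 92.5, 53.3, 74.7 and 82.1 CPM in DR and at 63.4, 79.9, 71.9, 109 and 70.7 CPM in AL. Rrp9 was at 37.2, 22.7, 25.0 and 23.8 CPM in DR and at 25.8, 27.6, 28.5, 36.3 and 25.5 CPM in AL. In Rrp9, 1 library of each diet stood well above the rest. In Gnl3 this held for AL replicate 4, while DR replicate 1 lay nearer to DR replicate 4, at 82.1 CPM. In the GENCODE annotation snoRNA genes lie within 7 members (Ncl, Nop56, Nop58, Dkc1, Wdr43, Gnl3 and Tsr1), and 4 of those 7 showed the pattern, as did 7 of the other 28. Without those 2 libraries, an alternative chosen after seeing the data, 7 members fell (19.7% of all genes did) and Wdr12 did not pass (edgeR adjusted p = 0.12).

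**Figure D3:**
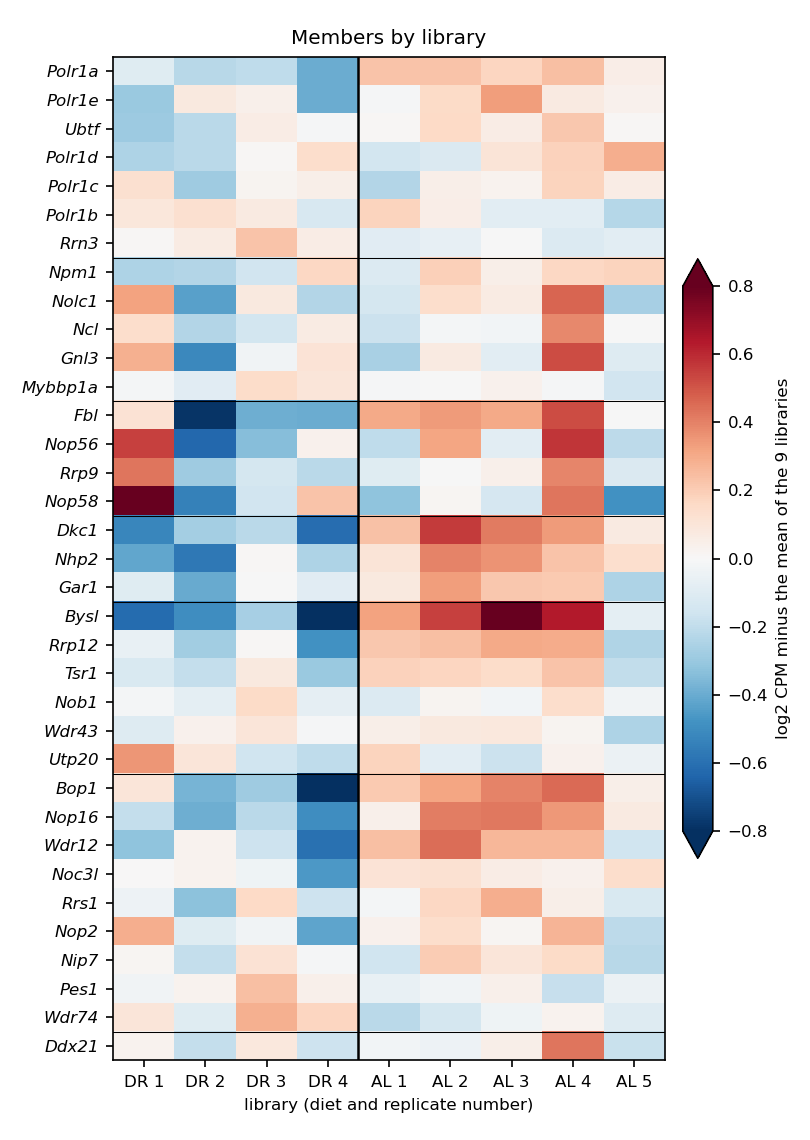
Level of each member (rows, grouped by role) in each library (columns, 4 DR then 5 AL), as log2 CPM minus the mean of the 9 libraries; red is above and blue below that mean. AL replicate 4 and DR replicate 1 are red for Nop56, Nop58, Rrp9, Gnl3 and Nolc1, and AL replicate 5 is paler than the other AL libraries for Bysl, Dkc1 and Bop1.

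Per length of all annotated exons, the same 5 members led under both diets. Dividing the CPM by the length of all annotated exons together, Ncl (72.1 CPM per kilobase in DR and 76.4 in AL) and Npm1 (60.2 in DR and 69.4 in AL) came first, followed by Nop56 (44.4 in DR and 48.8 in AL). The next members, Mybbp1a (42.9 in DR and 41.1 in AL) and Gnl3 (38.9 in DR and 40.6 in AL), lay close to Nop56, whose level was 84.6 ± 30.7 CPM in DR and 93.1 ± 23.7 CPM in AL (SD, n = 4 and 5), so their order is not resolved. Fibrillarin, often used to stain nucleoli, came 28 of 35 in DR (6.10 CPM per kilobase) and 25 of 35 in AL (9.45). Wdr12 came last at 0.659 in DR and 0.912 in AL. Its annotated exons span 10613 bases together, and where cells use a shorter transcript such a level is too low. The same holds for Nop58, whose 127 CPM in DR and 103 CPM in AL were above those of Nop56. Divided by its 9539 bases, it came 19 of 35 in DR and 24 of 35 in AL. The ranks thus depend on the annotated exon length.

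Promoters were compared because the members act in 1 pathway and Myc is known to bind the E-box CACGTG near many of their starts. RefSeq promoter windows of GRCm38.p6, from 250 bases before to 50 bases after each annotated start, were at hand for 30 members (not for Fbl, Npm1, Rrs1, Bop1 and Rrp12). An E-box was found for 7 of 30 members (23.3%) and for 8.09% of all 27025 genes with a window. A GC box (GGGCGG on either strand) was found for 23 of 30 members (76.7%) and for 38.2% of all genes. All genes here include those not expressed in these cells, and no share over the tested genes is given. The 7 members with an E-box were Nop2, Pes1, Wdr43, Rrn3, Utp20, Tsr1 and Mybbp1a, none of which passed the test of diet. Of the 8 members that fell, 6 had a window and 0 of these 6 held an E-box. A letter match is a description and not evidence of binding.

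The rule for printing promoters asked for members that fell and hold an E-box, and none did, so 4 were chosen after the counts were seen: the member that fell most, the member with the smallest p, a Pol I factor with E-boxes and the PeBoW member that did not pass. Each is printed from 5′ to 3′ along the gene, with E-boxes and GC boxes in capitals (RefSeq, GRCm38.p6): Bysl at chr17:47611443-47611742 (minus strand), Dkc1 at chrX:75095604-75095903 (plus strand), Rrn3 at chr16:13780449-13780748 (plus strand) and Pes1 at chr11:3963725-3964024 (plus strand).
Bysl: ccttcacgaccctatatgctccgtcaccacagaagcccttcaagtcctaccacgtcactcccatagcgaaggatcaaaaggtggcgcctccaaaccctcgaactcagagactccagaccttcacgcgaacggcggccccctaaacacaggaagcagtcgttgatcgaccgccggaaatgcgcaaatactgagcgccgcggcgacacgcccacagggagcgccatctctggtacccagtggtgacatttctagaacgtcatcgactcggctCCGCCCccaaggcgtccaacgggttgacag
Dkc1: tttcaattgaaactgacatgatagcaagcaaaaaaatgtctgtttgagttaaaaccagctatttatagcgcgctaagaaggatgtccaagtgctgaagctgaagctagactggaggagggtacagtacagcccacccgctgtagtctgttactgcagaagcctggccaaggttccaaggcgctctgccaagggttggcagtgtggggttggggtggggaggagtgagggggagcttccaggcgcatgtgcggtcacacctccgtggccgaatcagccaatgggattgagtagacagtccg
Rrn3: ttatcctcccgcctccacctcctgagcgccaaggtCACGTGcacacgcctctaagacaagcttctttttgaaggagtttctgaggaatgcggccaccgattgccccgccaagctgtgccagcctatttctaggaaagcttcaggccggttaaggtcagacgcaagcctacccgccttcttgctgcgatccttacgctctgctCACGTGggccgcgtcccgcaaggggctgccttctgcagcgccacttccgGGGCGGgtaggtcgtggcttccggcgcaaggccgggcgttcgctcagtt
Pes1: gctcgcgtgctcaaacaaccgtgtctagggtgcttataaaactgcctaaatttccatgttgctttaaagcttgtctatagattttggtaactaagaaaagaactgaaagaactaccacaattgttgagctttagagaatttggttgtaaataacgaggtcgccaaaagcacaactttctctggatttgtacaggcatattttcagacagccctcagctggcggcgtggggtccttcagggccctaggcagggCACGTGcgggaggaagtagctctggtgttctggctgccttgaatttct
Positions of a motif's first base are counted from the start as 1, with bases before it negative. Bysl holds 1 GC box, read on the other strand, at 21, and Dkc1 holds neither motif. Rrn3 holds E-boxes at -215 and -48 and a GC box at 2. In Pes1 the E-box is at 3.

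Beyond the members, other genes of ribosome production were looked up in lists by role. The remaining Pol I subunits and promoter factors held 4 genes higher and 1 lower in DR of 13 tested, with a median log2 fold change of 0.10 (1 higher and 1 lower when scaled by library size only). Tbp, the TATA-binding protein that all 3 nuclear polymerases use, was at 40.3, 48.0, 49.4 and 59.1 CPM in DR, against 26.5, 25.7, 24.4, 21.6 and 21.2 CPM in AL. All DR libraries were above all AL libraries, and the log2 fold change was 1.04 (SE 0.12, edgeR adjusted p = 0.00010). Twistnb (0.45), a stalk subunit of Pol I, and Taf1b (0.33) and Taf1c (0.51), of its promoter factor, rose as well, while Cd3eap (-0.38), another Pol I subunit, fell. Tbp passed in every other fit, whereas these 4 lost their call in some (edgeR adjusted p up to 0.062, 0.074, 0.16 and 0.073 in this order). Of 20 Pol III genes 6 rose and 3 fell, with a median of 0.05; under upper-quartile scaling 3 rose and 5 fell, and by library size only 2 rose and 4 fell. The largest Pol III subunit, Polr3a, averaged 56.4 ± 1.98 CPM in DR and 39.1 ± 2.44 CPM in AL (SD, n = 4 and 5; log2 fold change 0.53, edgeR adjusted p = 0.00033), whereas its Pol I counterpart Polr1a was lower in DR.

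Assembly factors outside the members were more often higher than lower in DR. Of 45 other small subunit factors 12 rose and 3 fell (26.7% and 6.67%, against 19.0% and 21.7% of all tested genes), and of 48 other large subunit factors 10 rose and 2 fell (20.8% and 4.17%). Their median log2 fold changes were 0.15 and 0.09. When scaled by library size only, 4 small subunit factors rose and 3 fell, and 7 large subunit factors rose and 2 fell, while 14.7% of all tested genes rose and 23.2% fell. Las1l, part of the complex that removes the second internal spacer, averaged 97.4 ± 9.09 CPM in DR and 56.7 ± 3.01 CPM in AL (SD, n = 4 and 5), a log2 fold change of 0.78 (SE 0.08, edgeR adjusted p = 7.0e-05). Bms1, a GTPase of the small subunit precursor, averaged 109.6 ± 5.01 CPM in DR and 79.9 ± 3.08 CPM in AL (SD, n = 4 and 5; log2 fold change 0.46, edgeR adjusted p = 0.00054). In the other direction Mdn1, a giant ATPase that strips factors off the large subunit, averaged 91.99 ± 27.2 CPM in DR and 147 ± 23.0 CPM in AL (SD, n = 4 and 5; log2 fold change -0.67, edgeR adjusted p = 0.015; 0.052 without DR replicate 3). Among 12 other snoRNP proteins 1 rose (Nufip1, 0.46) and 3 fell (Pih1d1, Ruvbl2 and Nop10). Pih1d1, of the R2TP chaperone that builds snoRNPs, fell to 16.3 ± 2.37 CPM in DR, against 27.7 ± 1.85 CPM in AL (SD, n = 4 and 5; log2 fold change -0.77, edgeR adjusted p = 0.00044), and its partner Ruvbl2 fell by 0.53. The RNA exosome, which trims the precursor ends, had 0 higher and 2 lower of 13, Exosc8 (-0.55) and Exosc2 (-0.44). Under upper-quartile scaling 4 were lower.

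Few of the ribosomal protein genes passed. Of 32 small subunit protein genes 0 rose and 2 fell (Rpsa and Rps23), and of 46 large subunit protein genes 1 rose and 5 fell (Rpl15, Rpl31, Rpl27a, Rpl19 and Rpl21), with medians of -0.08 and -0.09 (8 of the large subunit genes fell under upper-quartile scaling). Rpl15 fell to 33.3 ± 6.601 CPM in DR, against 63.4 ± 4.91 CPM in AL (SD, n = 4 and 5; log2 fold change -0.93, edgeR adjusted p = 0.00028). The gene that rose, Rpl23a, stood at 71.4 CPM in DR replicate 3 and at 6.56 CPM or less in the other libraries; without DR replicate 3 its log2 fold change was 0.34 in place of 3.09 (edgeR adjusted p = 0.73). Many of these genes have near-identical pseudogene copies that can take or void their reads, so their values are uncertain. Of 24 regulators of Pol I, 11 rose and 5 fell (66.7%, against 40.7% of all tested genes). Max, the partner that Myc needs to bind DNA, averaged 120.6 ± 14.1 CPM in DR and 65.6 ± 6.83 CPM in AL (SD, n = 4 and 5; log2 fold change 0.88, edgeR adjusted p = 0.00014), while Tsc2, a brake on mTORC1, fell by 0.43. Tsc1, by contrast with Tsc2, was among the genes that rose. Rbl2 rose too, while Ccnd1 and Cdk4 fell. Myc itself and its relative Mycn, looked at after their values were seen, went in opposite directions. Myc was at 793, 345, 652 and 681 CPM in DR, against 226, 196, 283, 491 and 372 CPM in AL, and rose by a log2 fold change of 0.98 (edgeR adjusted p = 0.020; 0.056 without DR replicate 1 and 0.055 without DR replicate 4). Mycn was at 4.89, 5.72, 6.46 and 6.35 CPM in DR, against 16.5, 38.4, 30.5, 16.8 and 4.10 CPM in AL, a log2 fold change of -1.86 (edgeR adjusted p = 0.011; 0.063 with limma-voom). For both the groups overlapped by 1 library or more; for Mycn it was again AL replicate 5 that lay at the DR level.

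**Figure D4:**
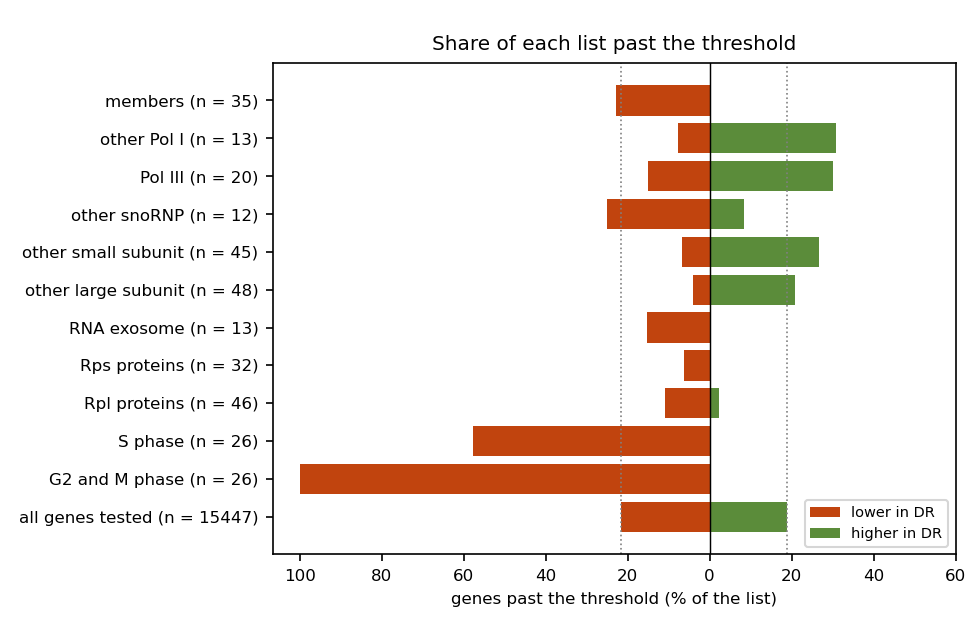
Share of each list (in percent of its genes tested; n beside the name) past an edgeR adjusted p of 0.05, lower in DR to the left of 0 and higher in DR to the right. Dotted lines mark the shares over all genes tested, 21.7% lower and 19.0% higher; the members have 22.9% lower and 0 higher, and all 26 genes of G2 and M phase are lower.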

How the data were processed

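RNA of sorted bulge stem cells was sequenced from 4 DR and 5 AL libraries (TruSeq RNA v2, single reads of 51 cycles). The authors deposited raw counts, whole numbers of reads for each gene symbol, without normalization. Per the submitters' processing notes, FastQC 0.11.5, TopHat2 2.1.0, Bowtie, HTSeq 0.11.2 and the mm9 build were used; annotation, strand setting and handling of multiple hits: not given in the sources used here.

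From each file, 6 lines that name no gene (25.9% to 30.7% of reads) were left out. Counts of 15447 genes that passed edgeR's filterByExpr were scaled by TMM and tested by diet with edgeR 4.0.16 (glmQLFit, glmQLFTest, two-sided, R 4.3.3), with Benjamini-Hochberg adjustment over all of them and a threshold of 0.05. SE is the log2 fold change over the root of F, and 95% intervals use the t distribution. Alternatives were other scalings, filters and thresholds, DESeq2 1.42.0, limma 3.58.1, the replicate number as a block, and each library left out. The pipeline was tested on simulated data. Exon lengths, partners and snoRNAs came from GENCODE vM21, and promoters from RefSeq (GRCm38.p6), with no coordinates moved between builds. An older symbol was used for 2 listed genes, and 5 had no match.

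All 35 members are accounted for. Values in every library were given for up to 10 members in each direction with the largest fold among those past the threshold, and for Polr1a, Polr1b, Ubtf, Rrn3, Fbl, Ncl, Npm1 and Dkc1; of each other list, genes were drawn from the 3 smallest p in each direction. Taf1c, Rpl19, Rpl21, Myc, Mycn and the genes that share exon bases with members lie outside this rule and were named after their values were seen. Other members were added where a single library stood apart. Members and lists were chosen with earlier results of these data known.

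The bulge, melanocyte, fibroblast and suprabasal markers are given in the report. Summed CPM of the other lists was 21.3 to 68.5 in DR and 15.7 to 49.3 in AL for immune cells, 4.48 to 37.0 in DR and 2.18 to 18.1 in AL for endothelium, 94.1 to 125 in DR and 63.0 to 74.2 in AL for hair matrix, 94.5 to 192 in DR and 48.8 to 85.8 in AL for sebocytes, and 32.9 to 37.9 in DR and 19.9 to 31.2 in AL for Schwann cells. Muscle and erythroid markers summed to at most 1.04 in DR and 1.16 in AL.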

Additional observations from a re-analysis of the deposited data

Results flagged for a closer look

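A library was marked when its gap to the nearest other library of its diet took up more of the group's range than Dixon's 95% value allows. Among the 35 members in each diet, 8 of 70 groups tested were marked, where chance marks about 1 in 20 of independent groups. With the members' summed level and 3 library measures added it was 8 of 78. The groups share the same 9 libraries and are not independent. The share marked over all genes is not given, so no excess among the members can be read from this count. In AL replicate 5, Rrp12 (15.4 CPM, others 21.1 to 22.4), Tsr1 (19.5 CPM, others 24.7 to 26.2), Wdr43 (49.6 CPM, others 59.7 to 62.3) and Mybbp1a (164 CPM, others 181 to 186) were low. In AL replicate 4, Ncl (793 CPM, others 537 to 606) and Rrp9 (36.3 CPM, others 25.5 to 28.5) were high. In DR replicate 1, Rrp9 was high (37.2 CPM, others 22.7 to 25.0). In DR replicate 4, Noc3l was low (16.1 CPM, others 21.7 to 22.7). The cause was not tested.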

How the results depend on the processing

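Of the 8 members lower in DR, 7 (all but Wdr12) passed under each of 19 other fits. Between 7 and 11 members were lower when 1 library was left out (11 without AL replicate 5), with 0 to 1 higher, a median of -0.19 to -0.05 and 5176 to 6402 genes called in all. The DESeq2 Wald test called 1 member higher (Rrn3), as did the fit without DR replicate 2 (Wdr74). An adjusted p under 0.01 left 3937 genes and 5 members, and a fold of at least 1.5 left 3702 genes and 5 members; both are stricter by construction. With the replicate block 6433 genes were called and 10 members, Rrp12 and Tsr1 added, were lower (21.8% of all genes were), with a median of -0.19. The labels do not say that replicate numbers pair the samples, and AL replicate 5 has no partner. Same-numbered libraries deviated with correlations of 0.04, 0.13, 0.23 and 0.03. Higher values were found between unlike numbers, for DR replicate 2 with AL replicate 1 (0.42) and DR replicate 1 with AL replicate 4 (0.29). Replicate 3 of each diet correlated best with its own number, but not every library did. The small correlations of same-numbered libraries cannot settle whether the numbers pair the samples. Signs turned only for members that did not pass. Wdr43 was -0.06 with upper-quartile scaling, -0.07 with library size only, -0.01 with limma quality weights and -0.05 with the replicate block. Utp20 was -0.01 under the first 3 of these and -0.06 without AL replicate 4 and DR replicate 1. Mybbp1a was -0.01 with library size only. Nob1 was 0.01 with DESeq2 size factors and the Wald test, 0.03 with quality weights and 0.04 without AL replicate 4 and DR replicate 1. With 1 library left out, log2 fold changes spanned -0.15 to 0.01 for Ncl, -0.39 to 0.02 for Nop56, -0.05 to 0.49 for Nop58, -0.23 to 0.01 for Nop2, -0.05 to 0.04 for Wdr43, -0.10 to 0.02 for Nip7, -0.10 to 0.05 for Polr1c, -0.17 to 0.08 for Gnl3, -0.27 to 0.02 for Rrp9, -0.07 to 0.13 for Utp20 and -0.04 to 0.03 for Nob1. The cause was not tested. With 4 and 5 libraries the median SE of a member was 0.12 on the log2 scale, which limits how small a difference can be called.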
